A study of Mus musculus with 12 samples.

Results

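DNA replication and S-phase genes were followed through intracerebral hemorrhage (ICH) in the mouse brain. The 41 genes were those rows of the deposited count table, out of 21956, whose symbol was on a list of the replicative helicase and its loading factors, the polymerases and their clamp, Okazaki fragment enzymes, deoxynucleotide enzymes, chromatin and DNA methylation factors of the fork, E2F transcription factors and checkpoint genes. All 41 symbols were found, each once. The RNA came from brain tissue beside the hematoma, 48 h after ICH was induced by collagenase injected into the right striatum, or from sham-operated mice, with 3 mice in each of 4 groups. Sham-Fabp4 fl/fl and ICH-Fabp4 fl/fl mice carried floxed Fabp4, a gene for a fatty acid-binding protein. Sham-Fabp4 CKO and ICH-Fabp4 CKO mice carried in addition an inducible Cre recombinase under Tmem119 and had been given tamoxifen before surgery, so that the deletion was directed at microglia. Floxed Fabp4 alleles were common to the 4 groups, and whether the fl/fl mice received tamoxifen, and their age and sex, are not given in the sources used here. Each library held the RNA of a piece of tissue with its neurons, glia, vessels and blood cells, so that more cells of a type and more RNA per cell cannot be told apart in any value below.

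Before S phase, the MCM2-7 helicase is loaded on DNA at origins by CDC6 and CDT1, and CDC45 and the GINS complex then turn it into the moving helicase of the fork. Polymerase alpha with its primase starts each strand, polymerases epsilon and delta extend them on the PCNA ring that replication factor C loads, and FEN1 and LIG1 join the pieces of the lagging strand. Transcription of most of these genes is held low in resting cells and is released by E2F factors as cells enter the cycle. Neurons of the adult brain do not divide, whereas microglia, oligodendrocyte precursors, endothelial cells, reactive astrocytes and some infiltrating blood cells can.

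Because most of the genes moved together in the data, their start regions were searched for short words bound by E2F factors. RefSeq windows on GRCm38.p6, from 250 bases before to 50 after an annotated transcription start, were matched by gene symbol for 33 of the 41 genes. None was matched for Gins1, Gins2, Gins4, Mcm4, Rfc2, Pole, H2ax and Exo1, and older symbols were not tried. The words TTTCCCGC, TTTGGCGC, TTTCGCGC and TTTGCCGC were searched on both strands. At least 1 of them stood in a window of 16 of the 33 genes (48.5%), against 704 of 27025 genes with a window (2.6%) and 575 of 17491 protein-coding genes (3.29%). Where only the first window of each gene was searched, the shares were 39.4% and 2.32%. The CCAAT word of the NF-Y factor was in a window of 66.7% of the 33 genes and 41.1% of all genes, and TTTGAA, a word of genes expressed in mitosis, in 21.2% and 20.2%. A match to such a word describes the sequence and does not show binding.

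Pole and H2ax had the smallest p after ICH in 2 of the 7 role groups and had no matched window. The windows below are those of the genes that led the other 5 (Mcm3, Lig1, Rrm2, Uhrf1 and E2f8). Windows of the 3 genes that did not pass the test in fl/fl mice (Gins3, Dnmt1 and Clspn) follow. They are printed 5′ to 3′ on the strand of the gene, with E2F words in capitals. Where a gene had several windows, the one with a word is shown.
Mcm3, chr1:20820263-20820562, minus strand: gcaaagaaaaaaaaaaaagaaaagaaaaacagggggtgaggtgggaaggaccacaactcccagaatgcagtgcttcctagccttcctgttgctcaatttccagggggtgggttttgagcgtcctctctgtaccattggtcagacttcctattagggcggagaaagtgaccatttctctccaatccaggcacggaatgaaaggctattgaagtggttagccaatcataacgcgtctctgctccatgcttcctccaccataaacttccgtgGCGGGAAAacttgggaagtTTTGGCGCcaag
Lig1, chr7:13278576-13278875, plus strand: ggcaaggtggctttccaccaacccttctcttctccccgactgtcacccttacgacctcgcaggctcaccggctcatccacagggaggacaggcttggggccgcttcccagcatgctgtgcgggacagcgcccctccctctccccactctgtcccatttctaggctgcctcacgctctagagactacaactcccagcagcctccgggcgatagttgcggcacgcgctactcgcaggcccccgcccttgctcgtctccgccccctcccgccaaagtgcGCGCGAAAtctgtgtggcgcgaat
Rrm2, chr12:24708004-24708303, plus strand: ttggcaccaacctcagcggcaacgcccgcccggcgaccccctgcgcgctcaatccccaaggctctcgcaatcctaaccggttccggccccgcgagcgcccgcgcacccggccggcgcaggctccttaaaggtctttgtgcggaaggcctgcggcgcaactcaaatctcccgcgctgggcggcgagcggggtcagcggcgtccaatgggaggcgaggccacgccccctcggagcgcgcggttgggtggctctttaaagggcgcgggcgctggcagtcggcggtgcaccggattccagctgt
Uhrf1, chr17:56304063-56304362, plus strand: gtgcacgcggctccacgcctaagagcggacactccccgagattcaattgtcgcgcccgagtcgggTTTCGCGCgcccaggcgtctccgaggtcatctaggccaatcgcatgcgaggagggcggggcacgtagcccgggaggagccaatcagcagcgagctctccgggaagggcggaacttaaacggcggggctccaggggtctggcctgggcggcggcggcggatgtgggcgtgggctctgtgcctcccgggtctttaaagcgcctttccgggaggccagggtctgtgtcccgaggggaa
E2f8, chr7:48881547-48881846, minus strand: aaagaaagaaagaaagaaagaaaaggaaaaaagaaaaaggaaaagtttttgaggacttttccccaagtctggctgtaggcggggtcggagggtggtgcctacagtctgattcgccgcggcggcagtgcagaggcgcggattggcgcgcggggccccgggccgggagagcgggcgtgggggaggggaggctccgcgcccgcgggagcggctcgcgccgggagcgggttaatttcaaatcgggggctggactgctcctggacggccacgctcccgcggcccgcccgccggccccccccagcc
Gins3, chr8:95633309-95633608, plus strand: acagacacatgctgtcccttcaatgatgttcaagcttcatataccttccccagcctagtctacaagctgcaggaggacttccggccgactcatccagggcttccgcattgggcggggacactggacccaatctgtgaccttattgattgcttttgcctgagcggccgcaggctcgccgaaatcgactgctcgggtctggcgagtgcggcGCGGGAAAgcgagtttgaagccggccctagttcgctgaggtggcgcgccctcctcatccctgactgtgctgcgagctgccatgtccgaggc
Dnmt1, chr9:20952574-20952873, minus strand: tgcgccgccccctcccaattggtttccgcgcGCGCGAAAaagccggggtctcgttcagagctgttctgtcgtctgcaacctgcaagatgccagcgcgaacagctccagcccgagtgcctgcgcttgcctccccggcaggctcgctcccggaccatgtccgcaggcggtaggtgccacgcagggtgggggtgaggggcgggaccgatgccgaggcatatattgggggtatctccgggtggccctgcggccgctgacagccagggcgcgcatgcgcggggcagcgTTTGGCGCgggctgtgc
Clspn, chr4:126556730-126557029, plus strand: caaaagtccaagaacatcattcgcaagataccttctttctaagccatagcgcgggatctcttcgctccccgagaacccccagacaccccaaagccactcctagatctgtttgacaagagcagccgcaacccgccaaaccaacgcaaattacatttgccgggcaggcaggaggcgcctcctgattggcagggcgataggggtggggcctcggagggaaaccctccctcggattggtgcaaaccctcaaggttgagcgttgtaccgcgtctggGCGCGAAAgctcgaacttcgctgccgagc
Rrm2 and E2f8, among the most increased genes, had none of the 4 words in these letters, while Gins3, Dnmt1 and Clspn, which did not pass, each had at least 1. Only these 3 genes did not pass, too few to show whether the presence of a word separates them from those that did. Of the 23 matches in the 16 genes, 10 began after the start, 3 within 50 bases before it and 10 further upstream, and Mcm5 and Mcm6 each held an overlapping pair.

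**Figure D1:**
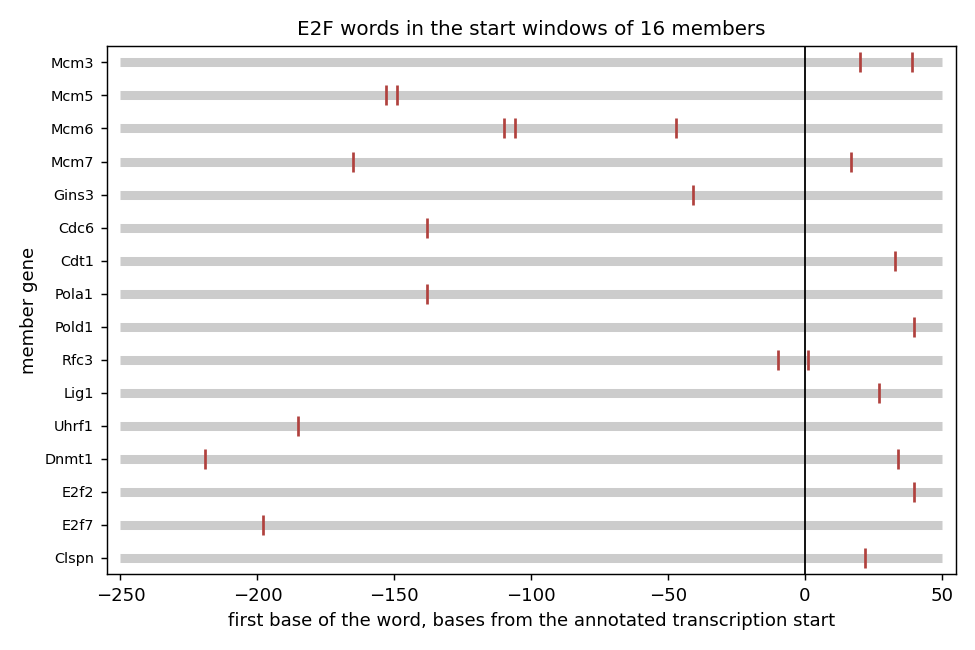
Positions of E2F words in the start windows of the 16 genes that had one. The x axis is the distance in bases from the annotated transcription start (black line), grey bars are the windows from 250 bases before to 50 after it and each red tick is the first base of 1 of 23 matches; Lig1, Uhrf1 and Dnmt1 are shown with the window that held a word.

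The libraries had total counts between 15650813 and 22406216. Fabp4 had 46, 63 and 24 reads in the ICH-Fabp4 fl/fl mice against 5, 3 and 10 in the ICH-Fabp4 CKO mice. It had 2, 1 and 2 reads in Sham-Fabp4 fl/fl and 0 in each Sham-Fabp4 CKO mouse. Some libraries stood apart: the mitochondrial share of counts reached 16.3% in the first ICH-Fabp4 fl/fl mouse, with 7.90% to 11.9% elsewhere, and only 1 Y-linked read was found for the first ICH-Fabp4 CKO mouse, with 1302 to 2251 elsewhere. Levels below are CPM, the count of a gene per 1000000 counts of its library after TMM scaling, in which libraries are aligned on the bulk of their genes. Groups were compared with edgeR's quasi-likelihood F-test over all genes that passed a filter on low counts, a gene was called at a Benjamini-Hochberg adjusted p under 0.05, and every adjusted p below comes from this test unless another is named.

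After ICH the replication genes rose together in fl/fl mice. Their summed level was 363, 340 and 385 CPM in the 3 Sham-Fabp4 fl/fl mice and 1502, 1377 and 959 CPM in the 3 ICH-Fabp4 fl/fl mice. The lowest ICH mouse lay above the highest sham mouse for 39 of the 41 genes. In edgeR's test 38 of 41 genes were higher after ICH and 0 lower (40 higher and 0 lower at an unadjusted p under 0.05, against 30.3% and 24.9% of all genes, and 39 higher with DESeq2). Of all 14719 genes tested, 26.2% were called higher and 19.3% lower, and for 33% the ICH mice lay wholly above the sham mice. The median log2 fold change of the 41 was 2.00, and that of all genes tested was 0.02. Gins3, Dnmt1 and Clspn were the 3 that did not pass. Between 37 and 39 genes were higher when any 1 library was left out.

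In CKO mice the sums were 360, 398 and 375 CPM after sham surgery and 1071, 518 and 1395 CPM after ICH. The second ICH-Fabp4 CKO mouse was far below the other 2 and still above every sham mouse. Here 33 of 41 genes were higher and 0 lower (36 and 0 at an unadjusted p under 0.05, against 30.3% and 22.2% of all genes), where 24.5% of the 14737 genes tested were called higher and 11.1% lower. The median log2 fold change was 1.90, against 0.01 over all genes. Gins3, Gins4, Pold1, Rfc3, Rfc4, Dnmt1, Clspn and H2ax did not pass. This count depended on which library was left out: it was 38 without ICH-Fabp4 CKO mouse 2, 17 without mouse 3 and 7 without mouse 1 of that group, and 3, 1 and 2 without Sham-Fabp4 CKO mouse 1, 2 and 3. When a Sham-Fabp4 CKO library was left out, the genes called higher in the whole table fell from 3605 to between 701 and 796. At an unadjusted p under 0.05, 32 to 38 of the 41 were higher in each of these fits.

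**Figure D2:**
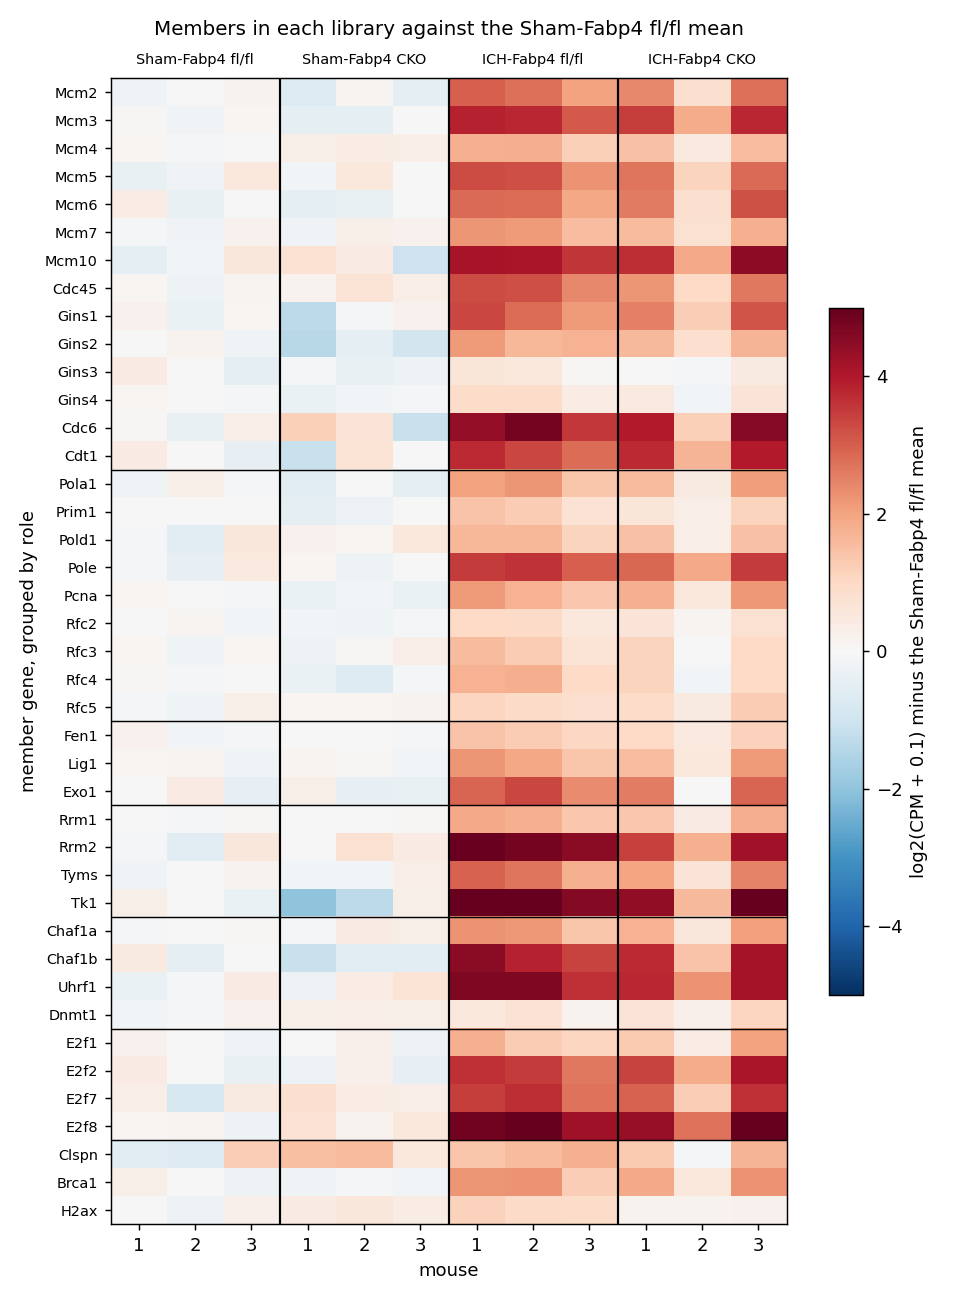
Each of the 41 genes (rows, black lines between role groups) in each of the 12 mice (columns), as log2(CPM + 0.1) minus the mean of the 3 Sham-Fabp4 fl/fl mice, with red above and blue below it. The 6 ICH columns are red for most genes, palest in ICH-Fabp4 CKO mouse 2, and Gins3 and Dnmt1 had the smallest log2 fold changes of the 41 in fl/fl mice, 0.39 and 0.50.

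The helicase and its loading factors, 14 genes, included some of the steepest increases. Mcm3, an MCM2-7 subunit and the gene with the smallest p of the group, stood at 5.02, 4.31 and 5.20 CPM in Sham-Fabp4 fl/fl mice and 70.0, 67.3 and 41.2 CPM after ICH. In CKO mice it was at 3.55, 3.45 and 4.83 CPM after sham surgery and 54.5, 17.8 and 66.8 CPM after ICH. Every ICH mouse was above every sham mouse in both genotypes, by a log2 fold change of 3.63 (SE 0.25, adjusted p = 0.000299) in fl/fl and 3.57 (SE 0.52, adjusted p = 0.00768) in CKO mice. The other MCM2-7 subunits rose by log2 1.64 (Mcm4) to 2.97 (Mcm5) in fl/fl mice and by 0.93 (Mcm4) to 2.79 (Mcm6) in CKO mice. Mcm4 was at 46.4, 47.6 and 31.4 CPM in ICH-Fabp4 fl/fl and 37.4, 19.1 and 39.7 CPM in ICH-Fabp4 CKO mice. Mcm10, which helps to start the fork, and Cdc6 and Cdt1, which load the helicase, were rare in sham tissue. Cdc6 was at 0.335, 0.221 and 0.420 CPM in Sham-Fabp4 fl/fl and at 8.67, 11.5 and 4.68 CPM in ICH-Fabp4 fl/fl mice, a log2 fold change of 4.65 (SE 0.47, adjusted p = 0.000522). In ICH-Fabp4 CKO mouse 2 it was at 0.853 CPM, level with the highest Sham-Fabp4 CKO mouse at 0.851 CPM.

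The 4 GINS subunits, which work as 1 complex, did not move alike. Gins1 and Gins2 rose in both genotypes, Gins2 from 11.2, 12.6 and 9.41 CPM to 48.2, 34.8 and 36.6 CPM in fl/fl mice and from 4.16, 7.85 and 5.86 CPM to 33.8, 20.0 and 36.3 CPM in CKO mice. Gins4 was at 16.3, 15.7 and 14.2 CPM in Sham-Fabp4 fl/fl and 29.2, 29.5 and 19.9 CPM in ICH-Fabp4 fl/fl mice, a log2 fold change of 0.78 (SE 0.19, adjusted p = 0.0146). In CKO mice Gins4 went from 12.1, 13.9 and 14.3 CPM to 21.4, 13.8 and 23.97 CPM, with the second ICH mouse inside the sham range (log2 fold change 0.57, SE 0.23, adjusted p = 0.0871). Gins3 was at 4.45, 3.37 and 2.36 CPM in Sham-Fabp4 fl/fl, 4.99, 4.84 and 3.45 CPM in ICH-Fabp4 fl/fl, 3.12, 2.54 and 2.72 CPM in Sham-Fabp4 CKO and 3.32, 3.15 and 4.49 CPM in ICH-Fabp4 CKO mice. Its groups overlapped in fl/fl mice and were narrowly apart in CKO mice, with log2 fold changes of 0.39 (SE 0.32, adjusted p = 0.334) and 0.40 (SE 0.23, adjusted p = 0.196). Gins2 shares 2758 exon bases with Gse1 on the other strand, and whether strand was used in counting is not given in the sources used here.

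All 9 genes of the polymerases, primase, clamp and clamp loader rose in fl/fl mice, by a median log2 fold change of 1.46, and 6 of 9 were called in CKO mice, with a median of 0.97. Pole, the catalytic subunit of polymerase epsilon, led them: it was at 1.29, 0.994 and 1.94 CPM in Sham-Fabp4 fl/fl and 16.4, 17.8 and 11.5 CPM in ICH-Fabp4 fl/fl mice. In CKO mice it went from 1.47, 1.13 and 1.36 CPM to 10.6, 5.33 and 16.6 CPM, and no groups overlapped (log2 fold changes 3.44, SE 0.31, adjusted p = 0.000412, and 3.05, SE 0.45, adjusted p = 0.00773). Pcna, which encodes the sliding clamp, had the highest level per kilobase of exon of the 41 genes in both fl/fl groups, at 19.0 ± 1.12 CPM per kb (SD, n = 3) after sham surgery and 65.0 ± 16.8 CPM per kb after ICH. In CPM it was at 48.7, 45.0 and 43.5 in Sham-Fabp4 fl/fl, 198, 153 and 117 in ICH-Fabp4 fl/fl, 36.5, 41.5 and 35.98 in Sham-Fabp4 CKO and 156, 66.1 and 206 in ICH-Fabp4 CKO mice. Those values gave log2 fold changes of 1.79 (SE 0.21, adjusted p = 0.000937) and 1.92 (SE 0.40, adjusted p = 0.0177).

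Polymerase delta's catalytic subunit Pold1 and the clamp loader subunits Rfc3 and Rfc4 were called in fl/fl mice and not in CKO mice. Rfc3 was at 5.50, 4.47 and 5.52 CPM in Sham-Fabp4 fl/fl and 15.5, 12.5 and 8.24 CPM in ICH-Fabp4 fl/fl mice, and at 4.26, 5.35 and 6.47 against 11.3, 5.17 and 10.3 CPM in CKO mice. Rfc4 was at 3.49, 3.20 and 3.47 against 11.5, 12.3 and 6.86 CPM in fl/fl mice, and at 2.65, 2.13 and 3.14 against 7.36, 3.09 and 6.83 CPM in CKO mice. Pold1 was at 6.27, 4.53 and 9.72 against 20.8, 21.0 and 14.1 CPM in fl/fl mice, and at 7.61, 6.99 and 9.51 against 18.0, 8.26 and 18.1 CPM in CKO mice. For all 3 genes, mouse 2 of the ICH-Fabp4 CKO group lay inside the sham range while mice 1 and 3 lay above it. In CKO mice the log2 fold changes were 0.75 for Rfc3 (SE 0.34, adjusted p = 0.114), 1.14 for Rfc4 (SE 0.37, adjusted p = 0.0549) and 0.89 for Pold1 (SE 0.33, adjusted p = 0.0724), and their difference from the fl/fl response was not called (adjusted p for the interaction 0.705 to 0.752). Rfc2 and Rfc5, which rose in both genotypes, changed least in the group in fl/fl mice, by log2 0.87 and 0.96. On the other strand, Rfc2 shares 952 exon bases with Lat2, Rfc5 499 with Wsb2 and Rfc4 194 with Eif4a2.

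Fen1, Lig1 and Exo1, the nucleases and ligase that process DNA ends, were called in both genotypes. Lig1, the ligase of Okazaki fragments, was at 11.5, 11.8 and 9.20 CPM in Sham-Fabp4 fl/fl and 50.2, 41.6 and 28.1 CPM in ICH-Fabp4 fl/fl mice (log2 fold change 1.90, SE 0.24, adjusted p = 0.00118). In CKO mice it was at 11.8, 11.2 and 9.79 CPM after sham surgery and 31.2, 15.4 and 47.5 CPM after ICH. The flap nuclease Fen1 went from 12.5, 9.83 and 10.04 CPM to 29.1, 26.1 and 21.9 CPM in fl/fl mice and from 10.5, 10.9 and 10.4 CPM to 21.4, 14.9 and 23.8 CPM in CKO mice. The ICH and sham mice did not overlap for either gene in either genotype. Fen1 shares 1909 exon bases with an antisense gene, so its reads could be split between them.

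The genes that supply deoxynucleotides had the highest median increase of the 7 role groups in fl/fl mice, log2 3.68 over 4 genes. Rrm2, the cell cycle-limited subunit of ribonucleotide reductase, had the smallest p of the 41 genes. It was at 2.39, 1.71 and 3.73 CPM in Sham-Fabp4 fl/fl and 79.9, 70.3 and 58.5 CPM in ICH-Fabp4 fl/fl mice, and at 2.51, 4.31 and 3.33 CPM in Sham-Fabp4 CKO and 27.6, 8.69 and 46.8 CPM in ICH-Fabp4 CKO mice. All ICH mice were above all sham mice, with log2 fold changes of 4.75 (SE 0.30, adjusted p = 0.000283) and 3.04 (SE 0.62, adjusted p = 0.0168). Tk1, thymidine kinase of the salvage pathway, had the largest fold change of the 41 in both genotypes, log2 5.26 (SE 0.35) and 5.46 (SE 1.19), from a level near the limit of detection, which in 2 of the Sham-Fabp4 CKO libraries was 1 and 3 reads. It rose from 0.622, 0.497 and 0.368 CPM to 25.3, 18.3 and 13.9 CPM in fl/fl mice, and to 12.5, 1.71 and 21.3 CPM in CKO mice. Tyms, thymidylate synthase, went from 1.96, 2.26 and 2.52 CPM to 17.9, 14.9 and 7.87 CPM in fl/fl mice and from 2.03, 2.04 and 2.81 CPM to 8.99, 3.57 and 12.98 CPM in CKO mice. Rrm1, the constant subunit of the reductase, rose less, by log2 1.71 and 1.29.

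Among the chromatin and methylation factors of the fork, Uhrf1, which brings the maintenance methyltransferase to new DNA, rose by log2 4.44 (SE 0.36, adjusted p = 0.00035) in fl/fl mice, from 1.67, 2.04 and 2.84 CPM to 56.4, 56.5 and 28.01 CPM. In CKO mice it went from 1.75, 2.77 and 3.51 CPM to 30.04, 10.4 and 40.4 CPM. Chaf1a and Chaf1b, subunits of the histone chaperone CAF-1, rose in both genotypes, by log2 2.02 and 4.11 in fl/fl mice. Chaf1a shares 4648 exon bases with Ubxn6 on the other strand. Dnmt1, the methyltransferase itself, was at 51.9, 53.3 and 66.1 CPM in Sham-Fabp4 fl/fl, 81.5, 93.4 and 63.6 CPM in ICH-Fabp4 fl/fl, 69.2, 71.5 and 70.5 CPM in Sham-Fabp4 CKO and 88.5, 67.7 and 118 CPM in ICH-Fabp4 CKO mice. Its groups overlapped in both genotypes, and the log2 fold changes were 0.50 (SE 0.18, adjusted p = 0.0572) and 0.39 (SE 0.21, adjusted p = 0.16). Per kilobase of exon, Dnmt1 ranked 4 of 41 in Sham-Fabp4 fl/fl mice and 11 in ICH-Fabp4 fl/fl mice, and Uhrf1 ranked 25 and 10.

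Each of the 4 E2F genes was called in both genotypes. E2f8, a repressor of the family that is itself switched on in S phase, was at 0.431, 0.442 and 0.315 CPM in Sham-Fabp4 fl/fl and 13.7, 15.7 and 9.09 CPM in ICH-Fabp4 fl/fl mice, a log2 fold change of 5.01 (SE 0.33, adjusted p = 0.000287). In CKO mice it was at 0.709, 0.454 and 0.609 CPM after sham surgery and 9.97, 3.09 and 18.9 CPM after ICH (log2 fold change 4.17, SE 0.71, adjusted p = 0.0107). The partner repressor E2f7 rose by log2 3.46 and 2.56. Of the activators, E2f2 rose by log2 3.43 and 3.64. E2f1 rose less, from 7.32, 6.13 and 5.52 CPM to 21.6, 15.4 and 13.5 CPM in fl/fl mice and from 6.19, 7.48 and 5.11 CPM to 15.6, 8.21 and 25.3 CPM in CKO mice, and the groups did not overlap. E2f8 shares 610 exon bases with a transcript on the other strand.

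The checkpoint and damage genes were the least uniform group. Brca1, a repair and fork protection gene, rose by log2 1.99 (SE 0.33, adjusted p = 0.0033) in fl/fl and 1.90 (SE 0.43, adjusted p = 0.0225) in CKO mice. H2ax encodes the histone H2A variant that is phosphorylated around DNA breaks and stalled forks. It was at 25.0, 20.7 and 29.5 CPM in Sham-Fabp4 fl/fl and 56.0, 48.3 and 47.2 CPM in ICH-Fabp4 fl/fl mice, and at 33.0, 37.3 and 32.0 CPM in Sham-Fabp4 CKO and 28.3, 28.1 and 28.7 CPM in ICH-Fabp4 CKO mice. The ICH mice thus lay above the sham mice in fl/fl mice (log2 fold change 1.03, SE 0.17, adjusted p = 0.00322) and below them in CKO mice (log2 fold change -0.25, SE 0.11, adjusted p = 0.124). For 30.3% of all genes tested in CKO mice the ICH mice lay wholly below the sham mice. H2ax was the only one of the 41 genes for which they did.

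Clspn, which encodes the checkpoint mediator claspin, differed widely between sham mice. It was at 4.16, 3.92 and 14.5 CPM in Sham-Fabp4 fl/fl mice and 17.6, 18.6 and 8.90 CPM in Sham-Fabp4 CKO mice, and after ICH at 16.2, 18.7 and 21.3 CPM in fl/fl and 15.3, 6.03 and 20.2 CPM in CKO mice. The CKO groups overlapped, and the log2 fold change was 1.34 (SE 0.49, adjusted p = 0.0591) in fl/fl mice and -0.11 (SE 0.48, adjusted p = 0.866) in CKO mice. The fl/fl groups did not overlap, and without Sham-Fabp4 fl/fl mouse 3 the gene was called there in edgeR's test, with a log2 fold change of 2.17 (adjusted p = 0.00275). The summed level of 8 markers of striatal projection neurons in the same sham mice was 1418, 1659 and 4505 CPM in fl/fl and 3693, 5310 and 3041 CPM in CKO mice. The 2 sham mice with the lowest Clspn were those with the lowest striatal sums, and the part of striatal tissue in the Clspn result was not tested.

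**Figure D3:**
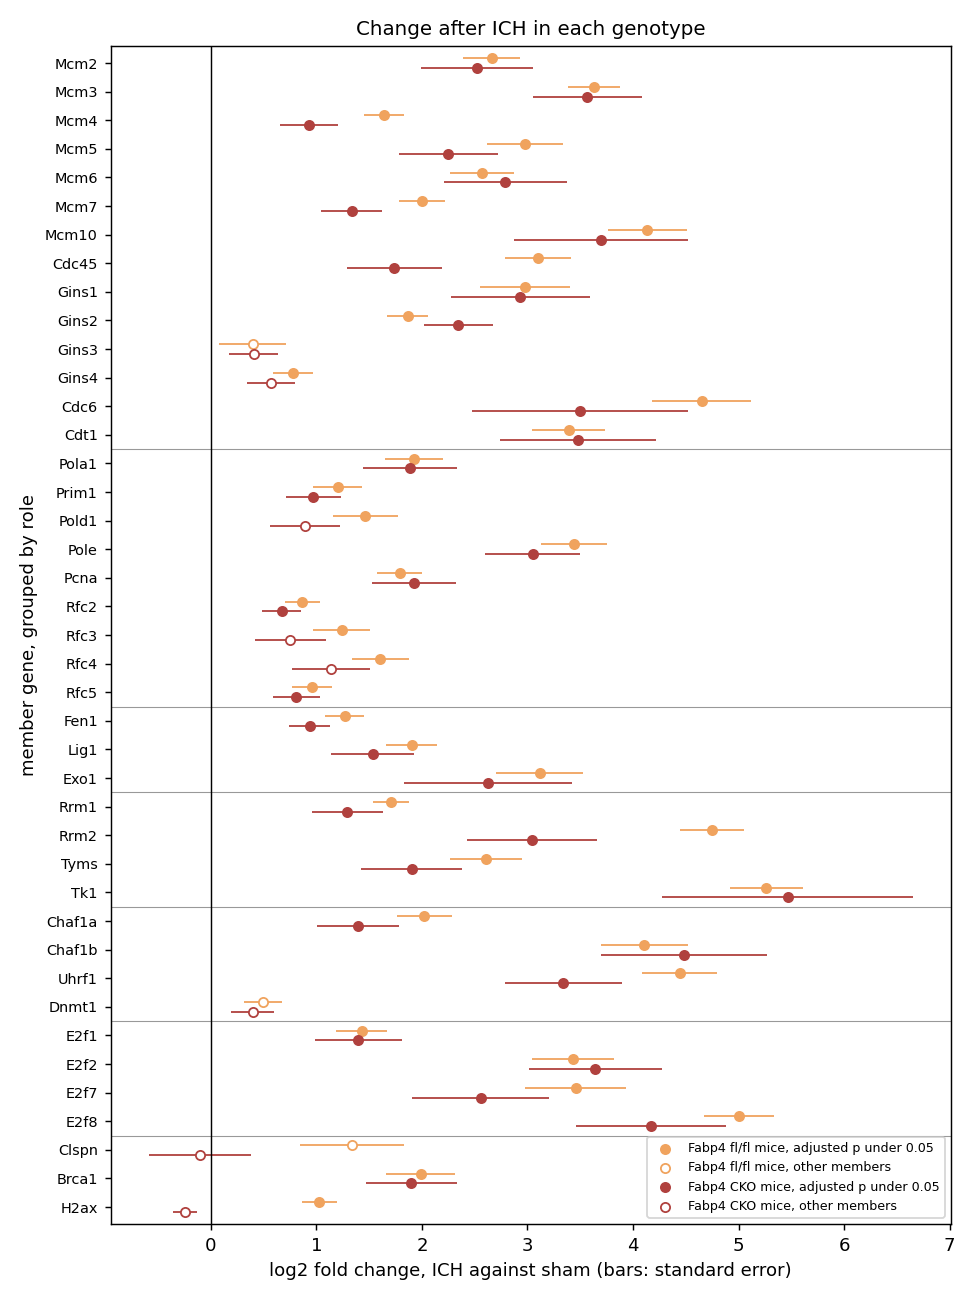
Log2 fold change of ICH against sham for the 41 genes (rows, grey lines between role groups) in fl/fl mice (orange) and CKO mice (red), with the standard error as bars, 3 mice in each group and open circles for genes with an adjusted p of 0.05 or above. The standard error was larger in CKO than in fl/fl mice for 38 of the 41 genes, and H2ax is the gene whose bars lie on opposite sides of 0.

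The increase differed between mice of the same group, and it did so for nearly all genes at once. ICH-Fabp4 CKO mouse 2 had the lowest level of the 6 ICH mice in 40 of the 41 genes, and ICH-Fabp4 fl/fl mouse 3 in the remaining 1, Dnmt1. Within the ICH-Fabp4 fl/fl group, mouse 3 was lowest in 39 genes. ICH-Fabp4 CKO mouse 2 had a median of 36.5% of the mean of mice 1 and 3 over the 41 genes, from 10.1% for Tk1 to 98.4% for H2ax. The median fold over the mean of the sham mice of the same genotype was 4.65, 4.62 and 2.89 in the ICH-Fabp4 fl/fl mice and 3.92, 1.56 and 5.41 in the ICH-Fabp4 CKO mice. Among sham mice the lowest mouse varied more from gene to gene: the lowest of the 3 Sham-Fabp4 fl/fl mice was mouse 1 for 8, mouse 2 for 19 and mouse 3 for 14 genes, and that of the Sham-Fabp4 CKO mice was mouse 1 for 21 and mice 2 and 3 for 10 genes each.

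Within each ICH group the sums of macrophage and of neutrophil markers followed this ordering, and those of neuronal markers followed it in reverse. The summed level of 10 monocyte and macrophage markers was 1944, 1587 and 796 CPM in ICH-Fabp4 fl/fl and 5131, 1036 and 8837 CPM in ICH-Fabp4 CKO mice, against 13.1 to 56.4 CPM in the sham mice. That of 8 neutrophil markers was 112, 62.1 and 56.7 CPM in ICH-Fabp4 fl/fl and 262, 75.9 and 272 CPM in ICH-Fabp4 CKO mice. That of 7 microglial markers was 1289, 1183 and 1280 CPM in ICH-Fabp4 fl/fl and 2699, 1358 and 4031 CPM in ICH-Fabp4 CKO mice, and it had the order of the replication genes in CKO mice but not in fl/fl mice. The sum of 6 neuronal markers went the other way, at 1106, 1776 and 2601 CPM and at 1597, 3339 and 1187 CPM in the same 2 groups, with 3786 to 4815 CPM in sham mice. Across the 2 groups the macrophage sums did not keep the order, as fl/fl mouse 3 was below CKO mouse 2. CKO mice 1 and 3 had higher macrophage sums than all 3 fl/fl mice. The replication sums of CKO mice 1 and 3, 1071 and 1395 CPM, were below the 1502 CPM of fl/fl mouse 1. A sum is weighted to abundant genes. The mean log2 difference of the 10 macrophage markers from Sham-Fabp4 fl/fl was 5.97, 3.94 and 5.85 in ICH-Fabp4 CKO mice. By that measure mice 1 and 3 changed places. The ICH mice with the lowest replication genes, fl/fl mouse 3 and CKO mouse 2, had the lowest macrophage and neutrophil sums of their groups. They also had the highest neuronal sums. The part of cell composition in the differences between mice was not tested.

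**Figure D4:**
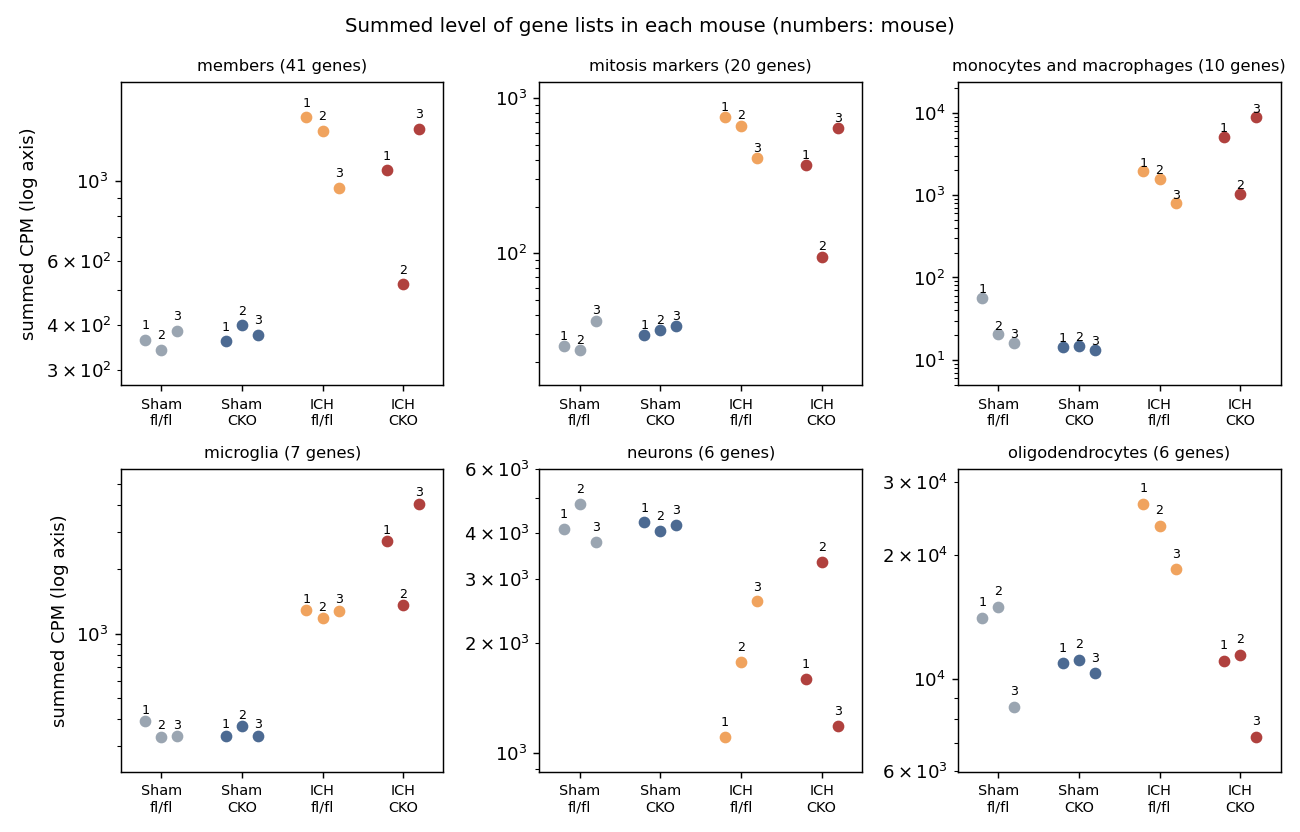
Summed CPM (log axis) of the 41 replication genes, 20 mitosis genes and markers of 4 cell types in each of the 12 mice, with 1 point per mouse and its number beside it. ICH-Fabp4 CKO mouse 2 has the lowest replication and mitosis sums of the 6 ICH mice (518 and 95.3 CPM) and the highest neuronal sum (3339 CPM).

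Whether the loss of microglial Fabp4 changed the replication genes after ICH was examined by comparing the ICH groups. None of the 41 was called: 0 of 41 were higher and 0 lower, and 0% of the 14600 genes tested were called in either direction. At an unadjusted p under 0.05, 0 were higher and 2 lower, H2ax and Rrm2, where 6.36% of all genes were higher and 5.82% lower. For 38 of 41 genes the log2 fold change was below 0, as for 43.8% of all genes, with a median of -0.41 against 0.06 over all genes. That shift rested on 1 library: without ICH-Fabp4 CKO mouse 2, 28 of 41 were below 0 and the median was -0.09. Without mouse 3 of that group all 41 were below 0 and the median was -0.77.

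Rrm2 and H2ax were also the only 2 of the 41 genes whose ICH-Fabp4 CKO mice all lay below the ICH-Fabp4 fl/fl mice, where 9.51% of all genes were apart in that direction. For Rrm2, given above, the highest CKO mouse was at 46.8 CPM and the lowest fl/fl mouse at 58.5 CPM, and the log2 fold change was -1.34 (SE 0.55, adjusted p = 0.403). For H2ax the CKO mice lay within 28.1 to 28.7 CPM and the fl/fl mice within 47.2 to 56.0 CPM. Its log2 fold change was -0.84 (SE 0.14), with an adjusted p of 0.257 in edgeR's fit on the 2 groups, 0.0238 with all 12 libraries in 1 fit and 3.16e-05 with DESeq2. In the other alternatives it ran from 0.0888, without ICH-Fabp4 CKO mouse 2, to 0.686, with the replicate number as a block. With any 1 ICH library left out the log2 fold change of H2ax lay between -0.92 and -0.75. Cdc45 was at 15.04, 14.4 and 8.18 CPM in ICH-Fabp4 fl/fl and 7.04, 2.99 and 9.66 CPM in ICH-Fabp4 CKO mice, and these overlapped.

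Oligodendrocyte and endothelial markers were lower in the same ICH-Fabp4 CKO mice than in the ICH-Fabp4 fl/fl mice. The sum of 6 oligodendrocyte markers was 26562, 23481 and 18434 CPM in ICH-Fabp4 fl/fl and 11051, 11466 and 7244 CPM in ICH-Fabp4 CKO mice, and that of 8 endothelial markers was 1118, 755 and 526 CPM against 415, 280 and 356 CPM. Neither pair of groups overlapped. The mean oligodendrocyte sum in sham mice was 12527 CPM in fl/fl and 10785 CPM in CKO mice. The mean endothelial sum there was 242 and 233 CPM. Against sham mice of the same genotype, the ICH-Fabp4 fl/fl mice thus had the higher means in both lists. Between the ICH groups, at an unadjusted p under 0.05, 6 of 6 oligodendrocyte and 7 of 8 endothelial markers were lower in CKO mice, and 4 of 7 neutrophil markers tested were higher. Ly6g, a defining neutrophil marker, had 0 reads in all ICH-Fabp4 fl/fl mice. Of markers of subventricular zone progenitors and neuroblasts 4 of 8 were higher, as were 3 of 7 of microglia, while 3 of 7 of T and NK cells were lower. In each of these 3 lists 0 went the other way. Over all genes 6.36% were higher and 5.82% lower. The part of these differences in the H2ax and Rrm2 values was not tested.

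The interaction of ICH and genotype tests directly whether the response to ICH differed. Its value is the log2 change after ICH in CKO mice minus that in fl/fl mice. None of 41 genes was called by edgeR. Over all 15089 genes, 0.0133% were called with a value above 0 and 0.00663% with a value below 0. At an unadjusted p under 0.05, 3 of the 41 genes were below 0 and 0 above it, where 5.57% of all genes were above and 4.37% below. The 3 were H2ax (log2 difference -1.32, SE 0.21, adjusted p = 0.0755), Rrm2 (-1.75, SE 0.71, adjusted p = 0.436) and Cdc45 (-1.41, SE 0.57, adjusted p = 0.438). The adjusted p of H2ax was 0.0249 without ICH-Fabp4 CKO mouse 2 and 6.43e-06 with DESeq2, and it ran from 0.0554 to 0.251 in the other alternatives, with 0.251 reached without Sham-Fabp4 CKO mouse 2. Clspn had a log2 difference of -1.48 (SE 0.76, adjusted p = 0.548). The median log2 difference of the 41 genes was -0.42, and -0.09 without ICH-Fabp4 CKO mouse 2. The standard errors of the 41 differences ran from 0.21 for H2ax to 1.28 for Tk1.

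**Figure D5:**
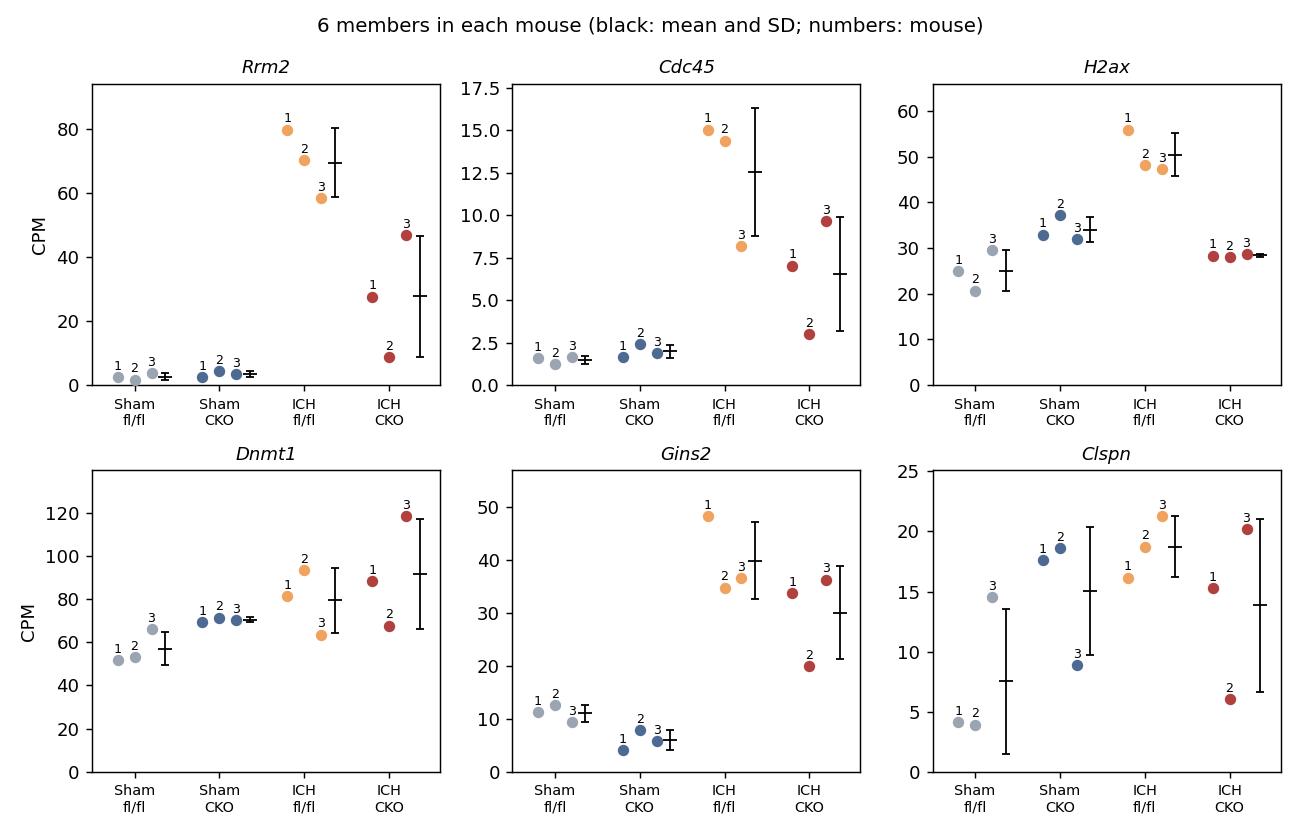
CPM of Rrm2, Cdc45, H2ax, Dnmt1, Gins2 and Clspn in each of the 12 mice, with 1 point per mouse and its number, and in black the mean and SD of the 3 mice of a group. Every y axis starts at 0; H2ax in the ICH-Fabp4 CKO mice lies between 28.1 and 28.7 CPM, below all 3 ICH-Fabp4 fl/fl mice.

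Between sham mice of the 2 genotypes no replication gene was called. Cdc6 and E2f8 were too rare to be tested there, and 0 of the other 39 genes were called in either direction, where 0% of 14395 genes were called higher and 0.111% lower in CKO mice. At an unadjusted p under 0.05, Mcm4, Dnmt1 and H2ax were higher and Gins2 and Pcna lower in Sham-Fabp4 CKO mice, 3 and 2 genes, with 4.15% of all genes higher and 6.07% lower. Mcm4 was at 14.4, 12.8 and 13.5 CPM in Sham-Fabp4 fl/fl and 16.4, 17.6 and 17.01 CPM in Sham-Fabp4 CKO mice (log2 fold change 0.32, SE 0.10, adjusted p = 0.462). Gins2, given above, had a log2 fold change of -0.90 (SE 0.24, adjusted p = 0.407) and Pcna of -0.27 (SE 0.10, adjusted p = 0.479). The groups did not overlap for any of the 5, which were picked by their p in this same comparison. Of the 39 genes tested, the Sham-Fabp4 CKO mice lay wholly above the others for 4 and wholly below for 4. Over all genes the shares were 6.79% and 8.07%. Sham-Fabp4 fl/fl mouse 3 had striatal marker sums above those of the other 2 fl/fl sham mice. Without that mouse, 3 of the genes (Dnmt1, Clspn and H2ax) were called higher and 1, Gins2, lower. Over all genes the counts then went from 0 and 16 to 1531 and 1331.

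Other genes of the cell cycle were read from lists of neighbouring functions, against the shares of all genes called after ICH, 26.2% higher and 19.3% lower in fl/fl and 24.5% and 11.1% in CKO mice. Of 43 further fork and origin genes, 29 were higher and 1 lower in fl/fl mice after ICH, and 22 of the 41 tested were higher and 0 lower in CKO mice. Dna2, a nuclease of the lagging strand, rose by log2 3.604 and 2.76, Chtf18, of an alternative clamp loader, by 3.13 and 1.38, and the histone chaperone Asf1b by 4.13 and 3.63. Of 10 G1/S cyclins and kinases, 8 and 7 were higher and none lower, with the S-phase cyclin Ccna2 up by log2 4.82 and 3.88 and the G1 cyclin Ccnd1 by 2.59 and 1.99. Of 20 homologous recombination and checkpoint genes, 15 and 13 were higher and none lower, among them Fanca and Fanci. Of 19 other nucleotide genes 9 and 6 were higher, with 0 and 1 lower, and the share higher in CKO mice lay near that of all genes.

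Several genes that restrain the cycle rose as well. Of the 9 Cdk inhibitors and pocket proteins tested, 5 were higher in fl/fl and 4 in CKO mice. Cdkn1a, which encodes the inhibitor p21, rose by log2 2.82 (SE 0.35, adjusted p = 0.00104) and 2.96 (SE 0.42, adjusted p = 0.00759). The pocket protein gene Rbl1 rose by log2 3.04 and 2.78 and the INK4 inhibitor Cdkn2c by 3.48 and 2.92. Of the other E2F and DP genes, 3 of 6 were higher in fl/fl mice (E2f5, Tfdp1 and E2f4, by log2 0.66 to 0.76), while 1 was higher and 1 lower in CKO mice, where 24.5% and 11.1% of all genes were called.

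Mitosis genes rose in both genotypes. All 20 were called higher, with median log2 fold changes of 4.57 in fl/fl and 3.73 in CKO mice. Their summed level was 23.7 to 36.7 CPM in the 6 sham mice, 755, 668 and 410 CPM in the ICH-Fabp4 fl/fl mice and 370, 95.3 and 641 CPM in the ICH-Fabp4 CKO mice. Within each ICH group the mice kept the order they had for the replication genes. Kif20a, Bub1b and Tpx2, of the spindle and its checkpoint, had log2 fold changes of 4.56, 3.74 and 3.92 in fl/fl and 2.94, 3.29 and 2.85 in CKO mice. Between the ICH groups 0 of 20 were called. All 20 were below 0 in CKO mice, as were 43.8% of all genes. At an unadjusted p under 0.05, 0 were higher and 1 lower, against 6.36% and 5.82% of all genes. The mitosis sum of ICH-Fabp4 CKO mouse 2 was 18.8% of the mean of the other mice of its group, and this list was not counted again without that mouse.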

How the data were processed

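Poly(A) RNA of 12 pieces of mouse brain, each taken here as 1 mouse, was read by Illumina sequencing. The values are estimated counts per gene, deposited by the authors without normalization; in each library 7.36% to 8.69% of the values were not whole numbers, and these were rounded here. The submitters' processing notes name Bowtie2 2.2.8, HISAT2, StringTie 1.3.1 and DESeq2; the genome build and the counting settings are not given in the sources used here. The other columns of the table hold annotation and were not used beyond the symbol. Groups follow the labels, and the replicate numbers in the labels were taken as separate mice. The labels of the ICH-Fabp4 fl/fl libraries alone carry a further number, whose meaning is not given in the sources used here.

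The whole table was fitted in R 4.3.3 with edgeR 4.0.16: TMM scaling, the filterByExpr filter (minimum count 10, minimum total count 15), and its quasi-likelihood F-test, run on the 2 groups compared, or on all 12 libraries for the interaction. P-values were Benjamini-Hochberg adjusted over all genes tested, with a threshold of 0.05. Each standard error (SE) was derived from that test, as the size of the fitted log2 fold change divided by the square root of its F value. It is therefore not a separate measure of spread. The test was checked on simulated counts. Alternatives were relative log expression (RLE) scaling, total counts, DESeq2 1.42.0, no filter, 1 fit of all libraries, the replicate number as a block and each library left out in turn. Same-numbered libraries come from different mice. No 2 libraries of the same group were copies, and pairs from different groups were not compared in that check. Exon lengths and overlaps were taken from GENCODE M21, start windows from RefSeq. Python 3.11.15, pandas 2.3.3 and matplotlib 3.10.9 were used for sequences and figures.

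The genes and the gene lists were chosen with earlier results of these data known. Values in every mouse are given for the genes with the smallest and the largest p of each role group after ICH in fl/fl mice, for those with an unadjusted p under 0.05 between genotypes, and for those that did not pass after ICH; Cdc6, Cdc45 and Tk1 were added after their values were seen. Of the other lists the 3 genes with the smallest p were eligible, and Cdkn1a. Some of these are not reported here.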

Additional observations from a re-analysis of the deposited data

Results flagged for a closer look

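The response of H2ax to ICH differed between the genotypes by -1.32 on the log2 scale (CKO minus fl/fl, SE 0.21). This difference includes one between the sham groups, where H2ax was higher in CKO mice by log2 0.44 (not called). Between the ICH groups it was lower in CKO mice, at -0.84. The difference in response was noted because every ICH-Fabp4 fl/fl mouse lay above every Sham-Fabp4 fl/fl mouse and every ICH-Fabp4 CKO mouse below every Sham-Fabp4 CKO mouse. The test of the difference itself gave an adjusted p of 0.0755 in edgeR's quasi-likelihood test, which misses the threshold, and 6.43e-06 in DESeq2. In edgeR it ran from 0.0249 to 0.251 over the alternatives and passed in 1 of them, without ICH-Fabp4 CKO mouse 2.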

How the results depend on the processing

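The count of genes higher after ICH in fl/fl mice was 37 to 39 in every alternative run. In CKO mice it was 17 with the replicate number as a block and 1 to 38 with 1 library left out, against 33. Between the ICH groups 1 gene, H2ax, was called lower with DESeq2 and with all 12 libraries in 1 fit, against 0. In the interaction 1 gene was called with DESeq2, and 0 to 1 with 1 library left out. Between the sham groups 0 to 3 genes were called higher and 0 to 1 lower with 1 library left out. Among differences near 0 that changed sign, the sham comparison of Lig1 was -0.023 with total counts and -0.00199 with all 12 libraries in 1 fit, and that of Tyms -0.0027 with total counts. With 1 library left out, the change after ICH in CKO mice ran from -0.50 to 0.25 for Clspn. The difference between the ICH groups ran from -0.027 to 0.37 for Dnmt1, -0.50 to 0.27 for E2f1, -0.98 to 0.16 for E2f8, -0.72 to 0.018 for Mcm3 and -0.49 to 0.21 for Pcna. That between the sham groups ran from -0.17 to 0.10 for E2f1, -0.10 to 0.082 for Fen1, -0.097 to 0.075 for Lig1, -0.29 to 0.19 for Pole, -0.12 to 0.18 for Rfc3 and -0.16 to 0.11 for Tyms. In fl/fl mice after ICH, Gins4 lost its call without Sham-Fabp4 fl/fl mouse 2 or 3 or ICH-Fabp4 fl/fl mouse 2 (adjusted p 0.0565 to 0.0683 in edgeR's test), and Dnmt1 gained one without ICH-Fabp4 fl/fl mouse 3 (0.0132) and with all 12 libraries in 1 fit (0.0479). The causes of these changes were not tested. The block on replicate numbers, which do not name shared mice (correlations of same-numbered deviations from -0.58 to 0.31), raised the count in fl/fl mice from 38 to 39, with Clspn called, and left the counts between genotypes and in the interaction at 0. With 3 mice a group, the largest standard error of a change after ICH in CKO mice was 1.19, for Tk1, which had 1, 3 and 13 reads in the sham mice.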
